A study of Solanum lycopersicum with 24 samples.

Results

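DREB1 and WRKYIId-2 are a pair of tomato (Solanum lycopersicum) transcription factor genes, followed here in leaves under drought and under heat. Each is represented by 1 probe set, so the members are 2 of the 10101 tomato probe sets on the array. DREB1 (gene ID 543711) has the title dehydration responsive element binding protein, and RefSeq lists SlERF-H15 as a synonym. WRKYIId-2 (gene ID 543855) is a WRKY transcription factor whose RefSeq symbol is LOC543855. They were chosen because the authors' deposited heat table gives these symbols. That table holds 1220 probe sets, selected for a genotype by treatment term in the heat experiment and a fold change of at least 2 in at least 1 genotype. The authors' deposited drought table, with 2222 probe sets, lists neither gene. The heat values therefore chose the genes and are given as a description without a test. Drought values did not enter this rule and were tested. The genes and tests were still chosen with earlier results of these data known.

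DREB proteins are plant regulators with an AP2/ERF DNA-binding domain. They bind the dehydration-responsive element found in promoters of many genes that plants switch on when water is short or the temperature is extreme, and dehydrins are among their best known targets. WRKY proteins carry a WRKY domain that binds the W-box, a motif common in promoters of defence and senescence genes. Members of group IId also bind calmodulin, the calcium sensor, in Arabidopsis.

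Leaves were sampled from plants at the flowering stage, grown in plastic pots. The 24 arrays fall into 8 groups of 3. In the drought experiment these are tolerant plants left without water for 7 days, tolerant control plants, susceptible plants left without water for 7 days, and susceptible control plants. The heat experiment has tolerant plants held at 40 C for 60 min, tolerant control plants, susceptible plants held at 40 C for 60 min, and susceptible control plants. The genotypes carry no cultivar name and are labelled only drought tolerant, drought susceptible, heat tolerant and heat susceptible, so the susceptible plants of both experiments need not be the same line. All control plants stood unstressed in a greenhouse, whereas the heated plants were moved to a growth chamber, so the heat and the move cannot be told apart. The labels do not say that replicates were separate plants. The p-values thus cover no more than the variation among these arrays, part of which may be technical, and the number of arrays limits the precision. Levels are log2 values of the array signal made by the authors with RMA, a method that corrects background, normalizes arrays and summarises the probes of a probe set. Differences are on the same log2 scale.

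The tolerant drought arrays stood apart. Background was read from 63 reporter probe sets for sequences foreign to tomato. Their 95th percentile, called the reporter range here for values at or under it, averaged 6.19 in tolerant droughted and 5.80 in tolerant control plants of the drought experiment, against 4.40 in susceptible droughted and 4.29 in susceptible control plants. In the heat experiment it averaged 4.81 in tolerant heated, 6.22 in tolerant control, 4.72 in susceptible heated and 4.96 in susceptible control plants. The spiked bacterial bioB transcript averaged 11.44 and 10.84 in the tolerant stressed and control drought groups and between 5.75 and 6.91 in the other 6 groups. The 3' minus 5' signal of 3 housekeeping transcripts, a measure of RNA integrity, averaged between 0.74 and 2.89 in the drought groups and between 3.15 and 4.45 in the heat groups. The part of these differences in the results was not tested, beyond the fits with a covariate named in the closing section. The leaf label was checked on 7 chlorophyll-binding and photosystem genes, whose median level lay between 10.17 and 12.59 in the 8 groups, with none of them in the reporter range. Of 5 named flower genes, 3 lay in the reporter range in each of 7 groups and 1 in tolerant droughted plants. The fruit and pollen genes looked for, among them polygalacturonase and E8, had no match, so those tissues were not checked. The markers also moved with drought. In tolerant plants 6 of the 7 leaf genes were called lower and 1 higher (median -1.89), and 3 of the 5 flower genes were called higher (median 1.67). In susceptible plants 6 leaf genes (median -0.59) and 2 flower genes (median 0.09) were called lower. All of these markers had been listed for drought, and their part in the drought responses below was not tested. In such bulk leaf RNA, fewer cells of a type and less RNA per cell cannot be told apart.

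**Figure D1:**
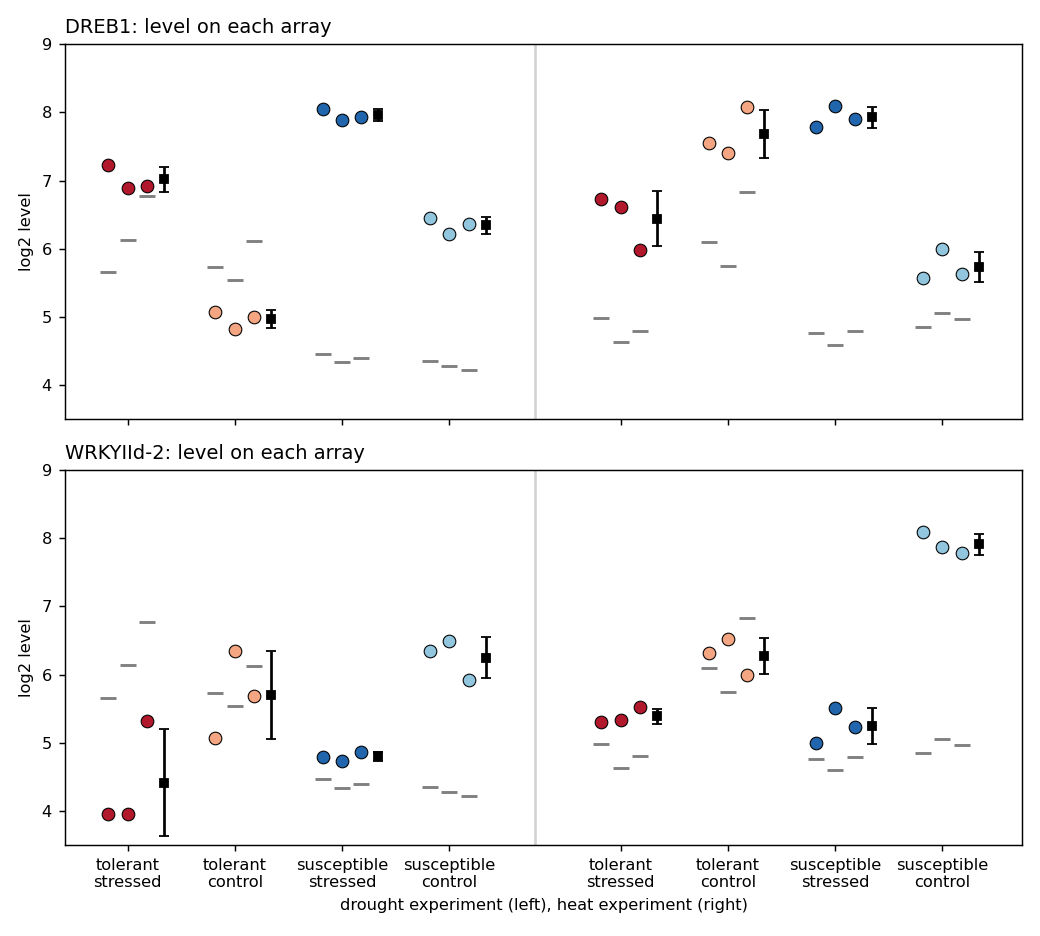
Log2 level of DREB1 (upper panel) and WRKYIId-2 (lower panel) on each of the 24 arrays. Circles are arrays, black squares with bars are the mean ± SD of 3 arrays, and each grey dash marks the reporter 95th percentile of the array drawn at that position. DREB1 is higher in stressed than in control plants of 3 pairs and lower in heated tolerant plants, while WRKYIId-2 is lower in stressed plants of 3 pairs. In tolerant plants of the drought experiment WRKYIId-2 lies under the dashes on all 3 droughted arrays, and its change could not be measured.

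DREB1 rose under drought in both genotypes. On tolerant droughted arrays it read 7.23, 6.90 and 6.93, against 5.08, 4.83 and 5.01 on tolerant control arrays. All 3 tolerant control arrays lay within the reporter range, so the rise in tolerant plants is a lower bound. It was at least 1.22, with a fitted value of 2.05 ± 0.12 (SE; limma adjusted p = 7.73e-07, n = 3 each). On susceptible droughted arrays DREB1 read 8.05, 7.89 and 7.93, against 6.45, 6.21 and 6.36 on susceptible control arrays. None of these 6 arrays lay within the reporter range, and the rise was 1.62 ± 0.12 (limma adjusted p = 3.14e-06), a linear ratio of 3.07. In neither genotype did the droughted and control arrays overlap, which also held for 48.2% of all probe sets in tolerant and 77.0% in susceptible plants. The rise was called against a background of 27.4% of probe sets called higher in tolerant and 23.1% in susceptible plants. Of all probe sets, 2.57% had a larger fitted rise than DREB1 in tolerant plants and 5.78% in susceptible plants.

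Both rises kept their call when each genotype was fitted on its own 6 arrays (limma adjusted p = 0.00131 in tolerant and 1.41e-07 in susceptible plants). For susceptible plants that fit called most probe sets of the array, more than the joint fit did. For tolerant plants it called fewer than the joint fit, and the closing section gives the counts.  For DREB1 the SD over 3 arrays was 0.19 in tolerant droughted and 0.13 in tolerant control plants, against 0.08 in susceptible droughted and 0.12 in susceptible control plants.

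A difference between both drought responses of DREB1 was not shown. The fitted responses differed by 0.43 ± 0.17 as tolerant minus susceptible (95% interval 0.04 to 0.82, limma adjusted p = 0.0806), in a comparison where 37.2% of probe sets were called. The adjusted p ranged between 0.00922 and 0.227 over the alternatives tried and fell under 0.05 in 3 of them, namely quantile normalization, median centring and the replicate block. With the tolerant response at its lower bound the difference was -0.40, so its direction could not be fixed at this background.

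DREB1 read lower on droughted tolerant than on droughted susceptible arrays. The levels averaged 7.02 ± 0.19 in tolerant and 7.96 ± 0.08 in susceptible droughted plants (SD, n = 3 each). The difference was -0.94 ± 0.12 (SE; limma adjusted p = 8.64e-05), and 28.7% of all probe sets were called lower. The arrays did not overlap, as for 75.1% of probe sets. Among control plants DREB1 averaged 4.97 ± 0.13 in tolerant and 6.34 ± 0.12 in susceptible leaves. That difference was -0.54 or lower, with a fitted value of -1.37 ± 0.12 (limma adjusted p = 9.36e-06) and 23.6% of probe sets called lower, and 72.9% of probe sets had arrays that did not overlap. In this experiment genotype went together with the higher background and bioB level of the tolerant arrays. Differences between the genotypes in DREB1 transcript and differences between these arrays cannot be told apart.

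WRKYIId-2 went the other way in susceptible plants and fell under drought. It read 4.80, 4.73 and 4.87 on susceptible droughted arrays, against 6.35, 6.49 and 5.92 on susceptible control arrays. The groups did not overlap, as for 77.0% of probe sets. The change was -1.45 ± 0.40 (SE; limma adjusted p = 0.0139, n = 3 each), a linear ratio of 2.73, where 19.7% of probe sets were called lower and 8.36% had a more negative value. The SE in this fit is set largely by the tolerant arrays, on which WRKYIId-2 varied more. On the 6 susceptible arrays alone the SE was 0.13 (limma adjusted p = 1.02e-05), in a fit that called most probe sets of the array. The call was lost narrowly after repeated quantile normalization, with -1.15 (adjusted p = 0.0502), and without susceptible control replicate 2, with -1.33 (adjusted p = 0.0517).

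In tolerant plants the drought response of WRKYIId-2 could not be measured. The gene read 3.96, 3.96 and 5.32 on droughted arrays, against 5.07, 6.35 and 5.69 on control arrays. All 3 droughted arrays and 2 of the 3 control arrays lay within the reporter range, and the arrays of both groups overlapped. The fitted value was -1.29 ± 0.40 (SE; limma adjusted p = 0.0209), but the call was lost on the 6 tolerant arrays alone (adjusted p = 0.112), with array weights and with the RNA integrity covariate. It was also lost without tolerant control replicate 2 (-0.96), without tolerant droughted replicate 1 (-1.06) and without tolerant droughted replicate 2 (-1.06). Raising every value to the reporter percentile turned it to 0.12. The difference of both drought responses was 0.16 ± 0.56 (95% interval -1.09 to 1.42, adjusted p = 0.854), an interval wide enough to hold a change of either direction.

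Genotypes could not be ranked for WRKYIId-2 in the drought experiment. Control plants averaged 5.70 ± 0.64 in tolerant and 6.25 ± 0.30 in susceptible leaves (SD, n = 3 each), with overlapping arrays. The fitted difference was -0.55 ± 0.40 (SE; limma adjusted p = 0.256), or -0.18 with the tolerant arrays in the reporter range raised to it. Droughted plants averaged 4.41 ± 0.78 in tolerant and 4.80 ± 0.07 in susceptible leaves, but the susceptible level itself lay under the reporter percentile of the tolerant arrays. That difference was therefore not measurable, and its fitted values, among them those in the closing section, rest on arrays within the reporter range.

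**Figure D2:**
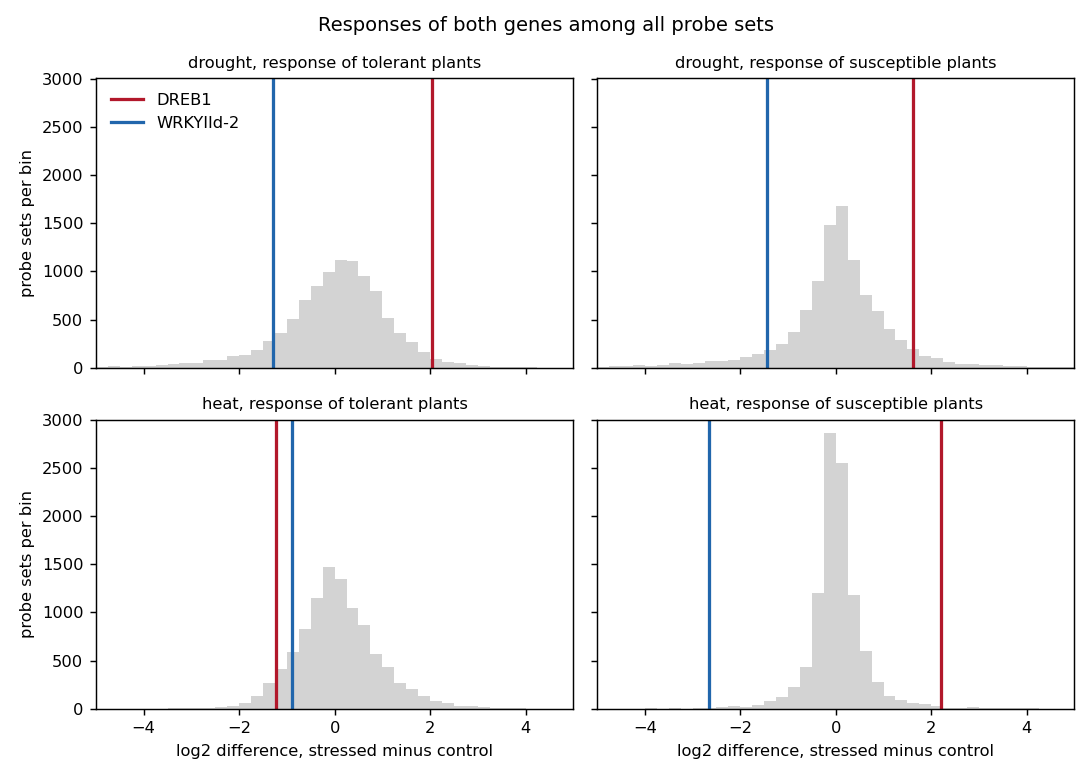
Number of probe sets (vertical axis, bins of 0.25) by log2 difference of stressed minus control plants (horizontal axis), for each experiment and genotype, with vertical lines at the fitted values of DREB1 and WRKYIId-2. DREB1 lies in the upper tail in 3 panels and in the lower tail for heated tolerant plants, and the WRKYIId-2 line for droughted tolerant plants rests on arrays within the reporter range.

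In the heat experiment, whose values selected the genes, DREB1 moved in opposite directions in the 2 genotypes. On tolerant heated arrays it read 6.74, 6.61 and 5.99, against 7.55, 7.41 and 8.08 on tolerant control arrays. On susceptible heated arrays it read 7.79, 8.09 and 7.91, against 5.58, 5.99 and 5.63 on susceptible control arrays. Each heated tolerant array lay under each tolerant control array, and each heated susceptible array lay over each susceptible control array. Groups without overlap made up 55.9% of probe sets in tolerant and 54.6% in susceptible plants. The difference was -1.24 in tolerant plants and 2.20 in susceptible plants, which made the responses differ by -3.43 as tolerant minus susceptible. As linear ratios the responses were 2.36 lower and 4.58 higher, and the authors' deposited table gives 2.45 lower in tolerant and 4.30 higher in susceptible plants.

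WRKYIId-2 was lower in heated plants of both genotypes. The gene read 5.31, 5.33 and 5.52 on tolerant heated arrays, against 6.31, 6.52 and 5.99 on tolerant control arrays. It read 5.00, 5.52 and 5.23 on susceptible heated arrays, against 8.08, 7.87 and 7.78 on susceptible control arrays. Heated and control arrays did not overlap in either genotype, though tolerant control replicate 3 lay within the reporter range. The difference was -0.89 in tolerant and -2.66 in susceptible plants, or ratios of 1.85 and 6.32. The authors' deposited table gives decreases of 1.93-fold in tolerant and 7.04-fold in susceptible plants.

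The unequal heat responses of both genes went with unequal control levels. In control plants of the heat experiment DREB1 averaged 7.68 ± 0.35 in tolerant and 5.73 ± 0.22 in susceptible leaves, and WRKYIId-2 averaged 6.27 ± 0.27 in tolerant and 7.91 ± 0.16 in susceptible leaves (SD, n = 3 each). After heat, DREB1 averaged 6.44 ± 0.40 in tolerant and 7.93 ± 0.15 in susceptible leaves, so the order of the genotypes turned round. DREB1 arrays of both genotypes were separate in control and in heated plants, as were those of 66.3% and 52.3% of probe sets. WRKYIId-2 averaged 5.39 ± 0.12 in tolerant and 5.25 ± 0.26 in susceptible heated leaves, with overlapping arrays. The tolerant control arrays of the heat experiment also had the lowest array median, 7.21, against 7.41 to 7.51 in the other heat groups, and the highest reporter level of that experiment. What part this has in the values was not tested.

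Across all 8 groups DREB1 was highest in droughted susceptible plants (7.96), followed by heated susceptible plants (7.93) and tolerant control plants of the heat experiment (7.68). Neighbours among these 3 groups overlapped. Droughted tolerant plants (7.02) came next and overlapped neither neighbour. Heated tolerant plants (6.44) and susceptible control plants of the drought experiment (6.34) overlapped each other. Susceptible control plants of the heat experiment had the next mean (5.73). They overlapped heated tolerant plants but not susceptible control plants of the drought experiment. Tolerant control plants of the drought experiment read lowest (4.97), but all 3 arrays lay within the reporter range, whose limit averaged 5.80 there, so their place relative to the group above was not measured. Whether all 24 arrays were normalized together is not stated, which limits any order across the experiments.

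For WRKYIId-2 the order was led by susceptible control plants of the heat experiment (7.91), which overlapped no other group. Tolerant control plants of the heat experiment (6.27), susceptible control plants of the drought experiment (6.25) and tolerant control plants of the drought experiment (5.70) followed, then heated tolerant (5.39) and heated susceptible plants (5.25), each overlapping the next. The lowest groups were droughted susceptible (4.80) and droughted tolerant plants (4.41), which overlapped each other but not, in the case of droughted susceptible plants, the heated susceptible group above. The places of tolerant droughted plants, with 3 of 3 arrays within the reporter range, and of tolerant control plants of the drought experiment, with 2 of 3, were not measured. Among the other 6 groups the 3 control means stood above the 3 stressed means.

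In susceptible plants of both experiments the pair ran in opposite directions, but in heated tolerant plants both genes were lower. Pearson's r between DREB1 and WRKYIId-2 was -0.45 over the 24 arrays, -0.56 over the 12 drought arrays and -0.66 over the 12 heat arrays. These points share groups and arrays, and some tolerant drought values lie within the reporter range. The heat values also selected both genes, so the r values only describe the arrays. Droughted and heated susceptible plants combined high DREB1 with low WRKYIId-2, and susceptible control plants of the heat experiment showed the reverse. Heated tolerant plants differed from their controls by -1.24 for DREB1 and by -0.89 for WRKYIId-2.

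**Figure D3:**
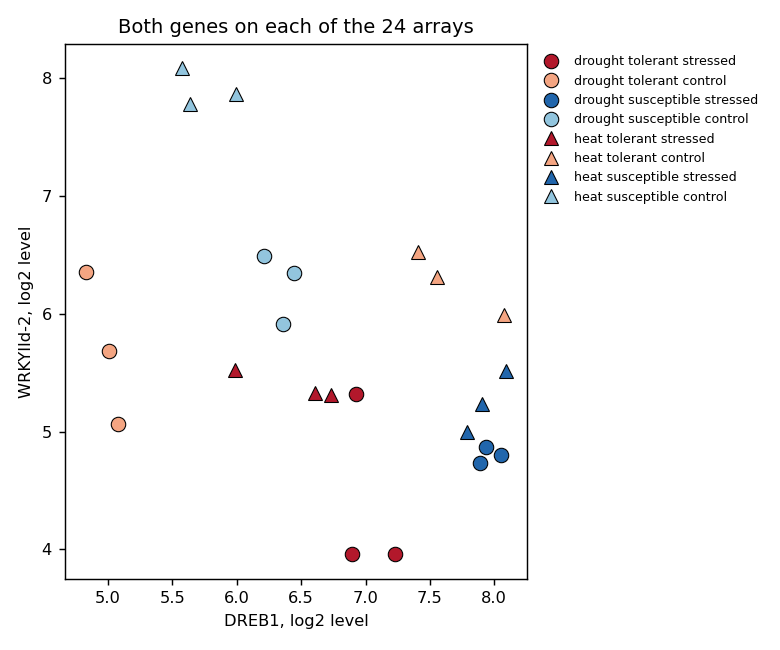
Log2 level of DREB1 (horizontal axis) against WRKYIId-2 (vertical axis) on each of the 24 arrays, with circles for the drought and triangles for the heat experiment and colours for genotype and treatment. Susceptible arrays spread between low WRKYIId-2 with high DREB1 in stressed plants and higher WRKYIId-2 with lower DREB1 in control plants, and r over all arrays is -0.45.

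The other named genes of the DREB1 family were called under drought no more often than probe sets at large. Among these family genes JERF1 rose in both genotypes, as DREB1 did. Gene names came only from the authors' deposited tables, which picked genes by unequal responses in at least 1 experiment, and the lists are not independent evidence of a direction. Values of a gene in an experiment it was listed for are given without a p. Of 6 other named AP2/ERF genes, 1 was called higher and 1 lower under drought in each genotype. Among the 5 that were not listed for drought, 1 was called higher and 0 lower in each genotype. Background was 27.4% higher and 23.2% lower in tolerant and 23.1% higher and 19.7% lower in susceptible plants. The higher gene was JERF1, listed for heat only, an ethylene- and jasmonate-linked regulator, which rose by 0.90 ± 0.10 (limma adjusted p = 3.66e-05) in tolerant and 0.55 ± 0.10 (adjusted p = 0.00118) in susceptible droughted plants. PTI4, a partner of the resistance kinase Pto and listed for drought, was the lower gene, with -1.17 ± 0.42 in tolerant and -2.19 ± 0.42 in susceptible plants. The list's median drought difference was -0.29 in tolerant and 0.31 in susceptible plants, against 0.11 and 0.05 over all probe sets.

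Genotype differences in the drought experiment went both ways in this family. In control plants 3 of the 5 genes not listed for drought were called lower and 2 higher in tolerant leaves, against 23.6% lower and 34.9% higher over all probe sets. PTI5, another Pto partner, had a difference of -2.98 ± 0.41 (limma adjusted p = 0.000163) and ERF3 one of -1.61 ± 0.19 (adjusted p = 6.45e-05). In droughted plants 3 of the 5 genes were called lower and 1 higher, against 28.7% and 39.1%. The higher gene was EREB, with 1.04, though 2 of its 3 tolerant droughted arrays lay within the reporter range. None of these genotype differences can be told apart from the higher background and bioB level of the tolerant arrays. Under heat, where these 5 genes had been selected, ERF3 showed the heat pattern opposite to that of DREB1, with a difference of 1.98 in heated tolerant and -1.10 in heated susceptible plants.

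Among WRKY genes WRKYIId-1, the other named gene of group IId, has a probe set that the authors' deposited table assigns to 2 splice variants. It read 11.08 ± 0.06 in tolerant droughted and 10.82 ± 0.03 in tolerant control plants, and 11.89 ± 0.03 in susceptible droughted and 11.80 ± 0.04 in susceptible control plants (SD, n = 3 each). Drought changed it by 0.25 ± 0.08 (SE; limma adjusted p = 0.0218) in tolerant plants, and the value in susceptible plants was 0.09 ± 0.08 (adjusted p = 0.42). The drought decrease of WRKYIId-2 in susceptible plants thus had no counterpart of that size in WRKYIId-1. Under heat both were lower, with WRKYIId-1 at -0.51 in tolerant and -1.30 in susceptible plants. WRKYIIe-1 was listed for drought only. In heated tolerant plants it rose by 0.63 ± 0.15 (limma adjusted p = 0.0047), as 29.6% of probe sets were called higher, and in heated susceptible plants its value was -0.45 ± 0.15 (adjusted p = 0.0534). The brighter WRKY2 probe set had drought differences of 1.92 ± 0.14 in tolerant and 0.92 ± 0.14 in susceptible leaves, but a second WRKY2 probe set had 1.39 ± 0.15 in tolerant and 3.54 ± 0.15 in susceptible leaves, so the probe sets disagreed on which genotype had the larger value. WRKYIIe-1 had 1.32 ± 0.24 in tolerant and 0.18 ± 0.24 in susceptible leaves. By the brighter probe set of each, all 3 other WRKY genes were called higher in droughted tolerant plants, and 1 of 3 in droughted susceptible plants, with 2 of the 3 listed for drought. Over all probe sets 27.4% were called higher in droughted tolerant and 23.1% in droughted susceptible plants.

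**Figure D4:**
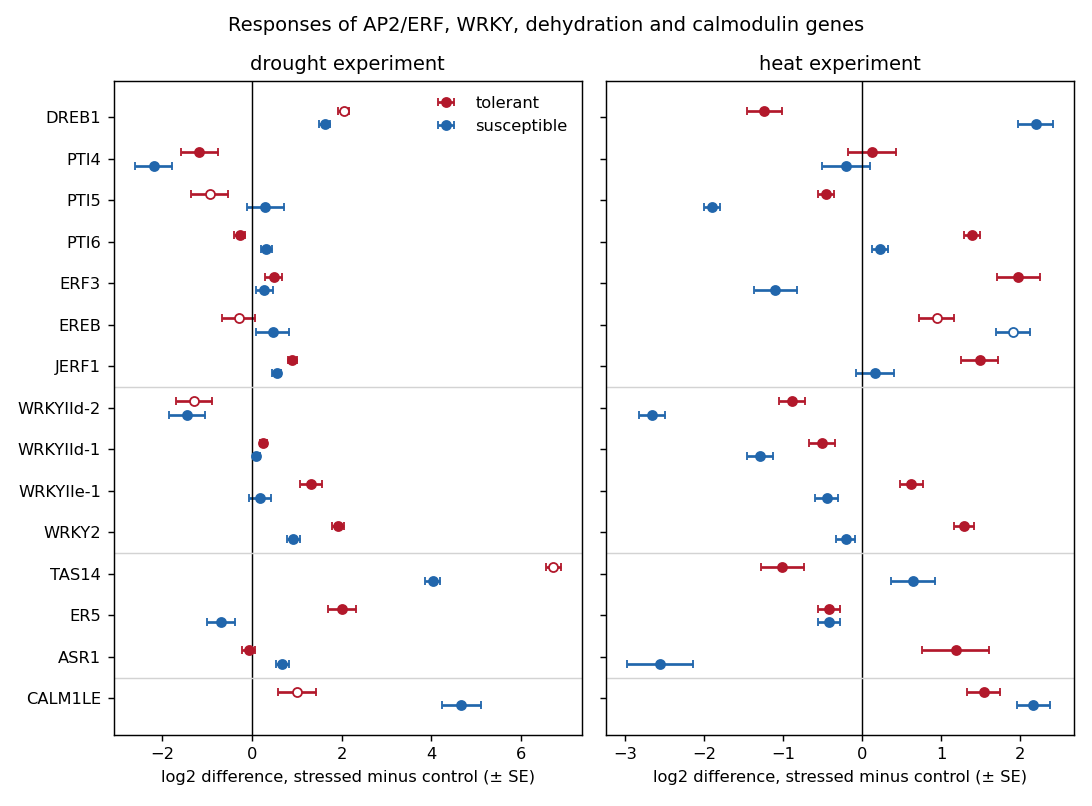
Fitted log2 difference of stressed minus control plants with its SE (horizontal axis) for AP2/ERF, WRKY, dehydration-linked and calmodulin genes (vertical axis, 1 probe set a gene, groups divided by grey lines), in tolerant (red) and susceptible (blue) plants of the drought and heat experiments. Open circles mark fitted values that are only bounds or not measurable because a group lies within the reporter range, among them the tolerant drought values of DREB1, WRKYIId-2 and TAS14. The tolerant heat value of TAS14 also rests in part on such arrays, and DREB1 has positive drought values in both genotypes with heat values of opposite sign.

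Genes that DREB and abscisic acid regulators are known to act on in plants were compared next. TAS14, a dehydrin listed for heat only, rose under drought in both genotypes, as did DREB1 (limma adjusted p = 5.03e-09 in tolerant and 3.41e-08 in susceptible plants). It stood at 11.41 ± 0.13 in tolerant droughted and 4.69 ± 0.35 in tolerant control plants, a rise of at least 5.61, and at 12.23 ± 0.10 in susceptible droughted and 8.20 ± 0.07 in susceptible control plants. Under heat TAS14 had a difference of 0.64 in susceptible plants. In tolerant plants the heat difference was -1.01. There 2 of 3 control arrays and 1 of 3 heated arrays lay within the reporter range, so this value is not read as a change. ER5, a late-embryogenesis-like protein, had 2.00 ± 0.31 in tolerant and -0.70 ± 0.31 in susceptible droughted plants. ASR1, a protein of ripening and water stress, had probe sets that disagreed. The brighter one had -0.08 ± 0.14 in tolerant and 0.68 ± 0.14 in susceptible droughted plants, and the other had 3.10 ± 0.28 in tolerant and 0.21 ± 0.28 in susceptible ones. With the brighter ASR1 probe set and one shared by ASR1 and a related transcript, 3 of the 4 list members were called higher in each genotype and none lower, against 27.4% and 23.1% of probe sets. ER5, ASR1 and the shared probe set come from genes listed for drought, so TAS14 is the member whose drought values played no part in its listing.

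The only named calmodulin gene, CALM1LE, had several probe sets, and the brightest, followed here, can match related transcripts. It stood at 11.35 ± 0.04 in susceptible droughted and 6.68 ± 0.10 in susceptible control plants (SD, n = 3 each), a difference of 4.67 ± 0.43 (SE) in the experiment it was listed for. In tolerant plants of the drought experiment 2 of 3 droughted and 3 of 3 control arrays lay within the reporter range. Under heat CALM1LE had differences of 1.54 ± 0.21 in tolerant and 2.17 ± 0.21 in susceptible plants, given without a test because another probe set of the gene was listed for heat. That other probe set had no measurable difference in tolerant plants and 1.91 in susceptible plants. A further probe set had a rise of at least 0.27 in tolerant plants and 1.97 in susceptible plants. WRKYIId-2 was lower in each of those heated groups.

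Of 15 pathogenesis-related, chitinase and glucanase genes, families with W-boxes in many promoters, 3 were called higher and 9 lower in droughted tolerant plants. In droughted susceptible plants 11 were called higher and 1 lower. All but 2 of the 15 had been listed for drought, so these counts describe the selection. The medians were -1.26 in tolerant and 2.31 in susceptible plants. The other 2 genes had 1 lower call in each genotype and 0 higher. Over all probe sets 27.4% were called higher and 23.2% lower in tolerant plants, and 23.1% higher and 19.7% lower in susceptible plants. Of 33 other transcription factors 15 were called higher and 4 lower in droughted tolerant plants, and 4 higher and 10 lower in susceptible ones. All but 10 of them had been listed for drought. Those 10 had 3 higher and 0 lower calls in tolerant and 1 higher and 0 lower in susceptible plants, so each lower call came from genes selected on drought values. Their higher calls were near the share over all probe sets in tolerant plants and under it in susceptible plants. LeAREB, titled AREB-like and thus of the abscisic acid response bZIP family, had 2.55 ± 0.18 in tolerant and 1.06 ± 0.18 in susceptible droughted plants. IAA10, an auxin-response repressor, had 0.51 in tolerant and -5.72 or lower in susceptible droughted plants. A second IAA10 probe set had 0.57 in tolerant and -1.25 or lower in susceptible droughted plants, so the size of the decrease differed between probe sets. Under heat LeAREB had differences of -0.56 in tolerant and 0.99 in susceptible plants. It was listed for both experiments.

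The named genes most like each member over the 24 arrays were found by Pearson's r among 409 genes. For DREB1 these were SIP, an alkaline alpha-galactosidase (0.77), PDH, a proline dehydrogenase (0.73), the calcium-dependent protein kinase cpk1 (0.70), an acyltransferase-like gene, LOC544234 (0.68), and GABA-TP1, a transaminase of gamma-aminobutyrate (0.68). The likeness of the first 4 came from the drought arrays, with r between 0.87 and 0.94 over 12 arrays, against 0.21 to 0.42 over the 12 heat arrays. GABA-TP1 had 0.83 over the drought and 0.74 over the heat arrays. The most opposite genes were the expansin EXPA4 (-0.71), HMGR of isoprenoid synthesis (-0.69) and the leaf-shape gene lanceolate (-0.68). No probe set of the array reached an r of 0.9 with DREB1 in either direction.

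For WRKYIId-2 the most alike were the resistance gene Ve2 (0.78), the MYB-related THM16 (0.76), the ethylene synthesis gene ACS7B (0.76) and the wall enzymes XTH9 (0.75) and XTH16 (0.73). These held in both experiments, with r from 0.70 to 0.84 over the drought arrays and from 0.64 to 0.83 over the heat arrays. The most opposite were the proteinase inhibitor gene LOC543954 (-0.84), the sucrose synthase sus3 (-0.82) and LOC778198 (-0.82). Outside the named genes 1 probe set reached an r of 0.9. All these r values rest on arrays that share groups, background and genotype. Most tolerant drought values of WRKYIId-2 also lay within the reporter range.

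**Figure D5:**
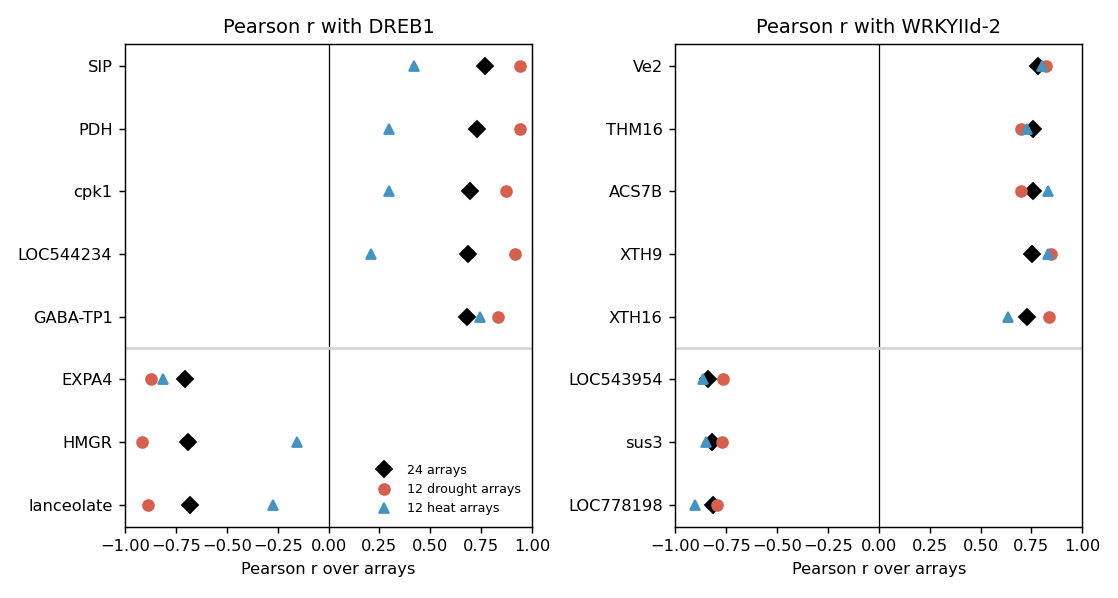
Pearson's r (horizontal axis) of the 5 most alike and 3 most opposite named genes (vertical axis) with DREB1 (left) and WRKYIId-2 (right), over 24 arrays (diamonds), 12 drought arrays (circles) and 12 heat arrays (triangles). For DREB1 the circles lie between 0.83 and 0.94 for the alike genes and the triangles reach down to 0.21, while for WRKYIId-2 circles and triangles lie closer together.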

How the data were processed

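The values were log2 signals per probe set that the authors deposited for 24 arrays, which the submitters' processing notes credit to RMA 1.0 in Expression Console of Affymetrix. For either experiment a deposited list from the authors holds fold changes as linear ratios. Per the file headers these list probe sets past a corrected p of 0.05 in a 2-way ANOVA and a fold change of 2. Of 10209 probe sets the 108 AFFX controls were left out. No genome build is given in the sources used here, and no positions are printed.

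Each experiment (12 arrays) was fitted as 4 group means with limma 3.58.1 in R 4.3.3 (lmFit, eBayes), with Benjamini-Hochberg adjustment over 10101 probe sets and a call at an adjusted p under 0.05. Where at least 2 of 3 arrays of the dimmer group did not exceed their own array's reporter 95th percentile (63 probe sets), a difference is a bound with those arrays raised to that percentile, or is not given where the brighter group lay there too. The fit was tested on simulated data. With each group's own spread in the simulation, the joint fit called too many probe sets in tolerant plants. Fits per genotype therefore stand beside its results for DREB1 and WRKYIId-2 and, in the closing section, beside the counts over all probe sets. Calls of all other named genes, and counts of such calls, rest on the joint fit alone. Members, lists and tests were chosen with earlier results of these data known. Genes named were the members, the 5 most alike and 3 most opposite genes of each, and genes of 6 lists, matched by symbol and title with 1 probe set per gene (the brightest). Lists of AP2/ERF, WRKY, dehydration and calmodulin genes could be named in full and others by up to 4 of the largest differences. Same-numbered replicates were not taken as pairs. The correlation of their deviations from group means lay between -0.127 and 0.115 in the drought and between -0.339 and 0.36 in the heat experiment.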

Additional observations from a re-analysis of the deposited data

Results flagged for a closer look

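The heat responses of DREB1 ran in opposite directions, with all 3 heated tolerant arrays under the tolerant control mean (by 0.95 to 1.69) and all 3 heated susceptible arrays over the susceptible control mean (by 2.05 to 2.36). The difference of responses was -3.43 as tolerant minus susceptible. It was not tested, since the gene was selected by this difference.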

How the results depend on the processing

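For DREB1 in the drought experiment, all 60 values with a replicate left out and 42 values under other alternatives kept their direction and side of the threshold. The exceptions concern the difference of responses (reported as 0.43), which was 0.76 (adjusted p = 0.00922) after quantile normalization, 0.50 (0.0411) after median centring, and 0.43 (0.0406) with the replicate number as a block, and turned to -0.40 (0.186) with values raised to the reporter percentile, an alternative chosen after seeing the data. The genotype difference in droughted plants, -0.94, missed a log2 threshold of 1. The block changed no other call of either gene.

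For WRKYIId-2 the susceptible drought response was -1.15 (0.0502) after quantile normalization. The tolerant response was -1.29 (0.112) on 6 arrays, -1.37 (0.0694) with array weights, -0.53 (0.496) with the RNA integrity covariate and 0.12 (0.698) with raised values. The difference of responses was -0.50 after quantile normalization and 1.57 (0.00696) with raised values, and the genotype difference in droughted plants, not measurable within the reporter range, -1.17 (0.0327) and 1.39 (0.000611). With a replicate left out, the susceptible response lay between -1.62 and -1.33, the tolerant response between -1.74 and -0.96, the difference of responses between -0.29 and 0.48, and the genotype difference in droughted plants between -0.84 and -0.16, with a call (0.0412) without tolerant droughted replicate 3.

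Heat values kept their sign throughout. DREB1 moved by more than its SD to -0.89 (tolerant response) and -2.93 (difference of responses) with array weights, and to 1.52 (control) and -1.97 (heated) for the genotype differences with the covariate. WRKYIId-2 moved to -1.17 (tolerant response) after median centring, and with raised values to -1.17 (tolerant response), 1.49 (difference of responses) and -1.36 (genotype difference in control plants).

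Counts of called probe sets moved by over 1.5 times as follows. The tolerant drought response had 5110 calls, 3109 on 6 arrays and 2878 at a log2 difference of 1 or more. The susceptible drought response had 4324, with 7502 on 6 arrays, 7481 with array weights and 2445 at that threshold. The genotype difference in drought controls had 5912, with 3317 under the covariate and 3667 at the threshold. In heat, the tolerant response had 5564 (3174 on 6 arrays, 2212 at the threshold) and the susceptible response 2150 (4431 on 6 arrays, 5480 with array weights, 752 at the threshold). Of the 5 genes most like DREB1, 4 were shared after quantile normalization, 1 by Spearman's rho and 0 within either experiment alone. For WRKYIId-2 these counts were 3, 3, 2 in drought and 0 in heat. The cause of these changes was not tested. Signal over background limits all tolerant drought values of WRKYIId-2 and the tolerant control value of DREB1.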
